A study of Homo sapiens with 6 samples.

Results

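The USP family (ubiquitin-specific proteases) is the largest family of human deubiquitylases, enzymes that remove ubiquitin from proteins. Its members were taken as the rows whose gene symbol is USP followed by a number, with or without a final X, and whose mean normalised count over all libraries was at least 50. This gave 43 genes of the 51 with such a symbol, in a table of 57820 annotated genes. The data are RNA-seq libraries from U2OS, a cell line established from a human osteosarcoma. The cells were given either the solvent DMSO (0.05%) or NMS-873 (5 µM, dissolved in DMSO), both for 4 h. Each treatment has 3 libraries, and the labels do not say whether these came from separate cultures. The p-values therefore reflect how far these libraries vary, and that variation may be technical. NMS-873 blocks VCP (p97) at an allosteric site. VCP is the ATPase that extracts ubiquitylated proteins from membranes and complexes. The comparison asks how the transcripts of these deubiquitylases differed when VCP was inhibited. The title of the study ties VCP to ubiquitin chains linked through K6 and to MYC.

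A USP enzyme cleaves the bond between ubiquitin and its substrate with a cysteine in a conserved catalytic domain, and the regions outside that domain set which substrates it meets and where in the cell. Family members act on histones, DNA repair proteins, receptors on endosomes, proteins at the ER and mitochondria, and free ubiquitin chains. Several act beside VCP: deubiquitylases can trim chains before or after VCP pulls a substrate out, and others set the half-life of MYC, p53 or their ligases. RNA levels say nothing on the activity of these enzymes.

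The libraries held between 21132311 and 22488952 reads in genes. Values are normalised counts, reads divided by a size factor of each library that the submitters took from ERCC spike-in RNA, and the tests used limma on log2(normalised count + 1) over 14889 genes. Among NMS-873 libraries, replicate 1 stood apart: by chi-square per degree of freedom it differed from the other two by 7.49 and 7.96, against 1.8 between those. Among DMSO libraries replicate 3 stood apart less, at 3.58 and 3.64 against 1.53. The counts of USP genes are also given without each of these. Of the osteosarcoma markers checked, COL1A1 and VIM, genes of mesenchymal cells, were high (48278 ± 1693 and 47682 ± 2228 normalised counts with DMSO; mean ± SD, n = 3, as for the levels below), while COL1A2, the partner chain of COL1A1, was at 10.96 ± 3.05. RUNX2, an osteoblast transcription factor, ALPL and SPP1 were at 228 ± 12.1, 317 ± 41.4 and 288 ± 26.3, and SP7, BGLAP and IBSP, further markers of the bone lineage, were at or near 0. Of the epithelial markers KRT8 and KRT18 were at 11088 ± 422 and 8336 ± 405 normalised counts, but EPCAM and CDH1 at 77.3 ± 10.5 and 33.9 ± 4.46. The blood marker PTPRC was at 13.3 ± 4.66 and CD3E at 0. Of 10 markers tested 5 fell with NMS-873, against 33.0% of all genes, among them RUNX2 by 1.94-fold and COL1A1 by 1.35-fold. Scaled to the genes, 4 were lower and 1, KRT18, higher, against 20.9% and 25.3% of all genes. The part of the markers in the USP results was not tested.

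The promoters of 4 members are shown because their transcripts are among those followed below: USP53 had the largest rise, USP36 and USP28 encode enzymes known to stabilise MYC, and USP32 is an endosomal member that rose. Each run goes 5′ to 3′ on the strand of the gene and ends at the annotated start (USP32 runs 10 bases past it). Capitals mark the E-box CACGTG, the letters that MYC with MAX binds. Sequences and coordinates are from RefSeq, build GRCh38.p14, and gene positions given later are in build hg19, as deposited. These 4 were picked with the results known, those of the E-box search included. Of the 35 members with a promoter sequence, only USP36, USP32 and USP28 hold the E-box. Where a gene has several starts, the promoter with the E-box is shown.
USP53, chr4:119212463-119212712, plus strand: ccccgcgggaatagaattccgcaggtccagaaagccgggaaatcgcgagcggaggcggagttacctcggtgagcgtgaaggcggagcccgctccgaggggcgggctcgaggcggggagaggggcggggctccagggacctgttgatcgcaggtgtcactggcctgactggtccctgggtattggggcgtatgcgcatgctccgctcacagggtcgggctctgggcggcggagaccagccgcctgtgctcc
USP36, chr17:78840815-78841064, minus strand: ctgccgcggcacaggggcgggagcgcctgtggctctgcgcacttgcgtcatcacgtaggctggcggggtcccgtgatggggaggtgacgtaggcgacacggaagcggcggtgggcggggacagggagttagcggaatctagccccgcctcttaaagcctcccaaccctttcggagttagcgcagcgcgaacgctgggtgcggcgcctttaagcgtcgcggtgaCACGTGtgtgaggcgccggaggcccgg
USP32, chr17:60392124-60392383, minus strand: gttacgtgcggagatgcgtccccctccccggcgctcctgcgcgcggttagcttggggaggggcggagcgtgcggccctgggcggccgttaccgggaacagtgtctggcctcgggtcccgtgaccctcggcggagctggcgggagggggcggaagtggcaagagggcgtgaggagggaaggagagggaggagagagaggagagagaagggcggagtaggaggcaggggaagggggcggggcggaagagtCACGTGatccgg
USP28, chr11:113875573-113875822, minus strand: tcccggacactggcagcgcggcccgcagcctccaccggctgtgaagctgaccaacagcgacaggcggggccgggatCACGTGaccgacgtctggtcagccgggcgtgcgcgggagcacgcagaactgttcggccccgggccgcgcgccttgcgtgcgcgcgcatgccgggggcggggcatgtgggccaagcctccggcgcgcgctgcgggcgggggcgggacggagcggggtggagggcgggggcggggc

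RefSeq windows of 300 bases (250 before to 50 after a start) were found for 35 of the 43 members, 47 windows in all because some genes have several starts. The E-box, searched on both strands, which read the same, was in 3 of the 47, those of USP36, USP32 and USP28. That is 6.38% of the windows, close to the 7.26% of all 35116 windows of this length. USP36 and USP32 rose and USP28 fell. The first base of the match lies at -27 in USP36, at -2 in USP32 and at -174 in USP28, counted from the start. The composite element of ATF4 and C/EBP factors (TGATGCAA, in 0.866% of all windows), the CRE (TGACGTCA, 1.85%) and the unfolded protein response element (TGACGTGG, 0.729%) were in 0 of the 47 member windows, also on both strands. None of these letter matches says whether a factor binds. The windows of members were rich in G and C, with a median of 68.3% against 58.7% over all windows. All windows were taken without the minimum count that members had to reach, so the sets are not matched for level.

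With NMS-873, 13 of the 43 USP genes rose and 10 fell at an adjusted p under 0.05. The changes were small except at both ends: USP53 rose 2.15-fold and USP51 fell 1.98-fold, and the next in size was USP1, which rose 1.3-fold, a size that 6.76% of all genes reached as calls upward. Over all genes tested 47.9% passed, 14.9% higher and 33.0% lower, so the shares of USP genes that rose (30.2%) and fell (23.3%) lay above and below those of all genes. Among genes with a mean of at least 50, the minimum that the USP genes had to reach, 17.3% were higher and 35.4% lower. The median log2 fold change of the 43 was -0.02 and that of all genes tested -0.10. Groups did not overlap for 13 members higher and 10 lower with NMS-873, against 16.4% and 37.2% of all genes.

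The split between higher and lower depends on the scale. When libraries were scaled to the genes (median of ratios) instead of the spike-in RNA, 21 members were higher and 6 lower. Of all genes 46.1% then passed, 25.3% higher and 20.9% lower, with the median member at 0.08 and the median of all genes at 0.00. Of the 20 members that did not pass on the spike-in scale, 8 were higher with these factors: USP14, USP9X, USP34, USP19, USP7, USP31, USP16 and USP45. No member that passed the test changed direction under any of 17 alternatives, and 16 of the 23 also passed in each: USP53, USP1, USP32, USP4, USP36, USP42, USP15, USP10, USP37 and USP47 higher, and USP51, USP13, USP22, USP40, USP21 and USP28 lower. Without NMS-873 replicate 1 the counts were 13 higher and 8 lower, and those of the 14889 genes tested 2406 and 4182. Without DMSO replicate 3 the members gave 13 higher and 9 lower, and all genes 2231 and 4005. The authors' deposited table gives 12 members higher and 7 lower at its own adjusted p under 0.05 (12.4% and 24.2% of the genes tested here). These 19 have the same sign here, and the 4 called only here are USP12, USP35, USP43 and USP54.

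**Figure D1:**
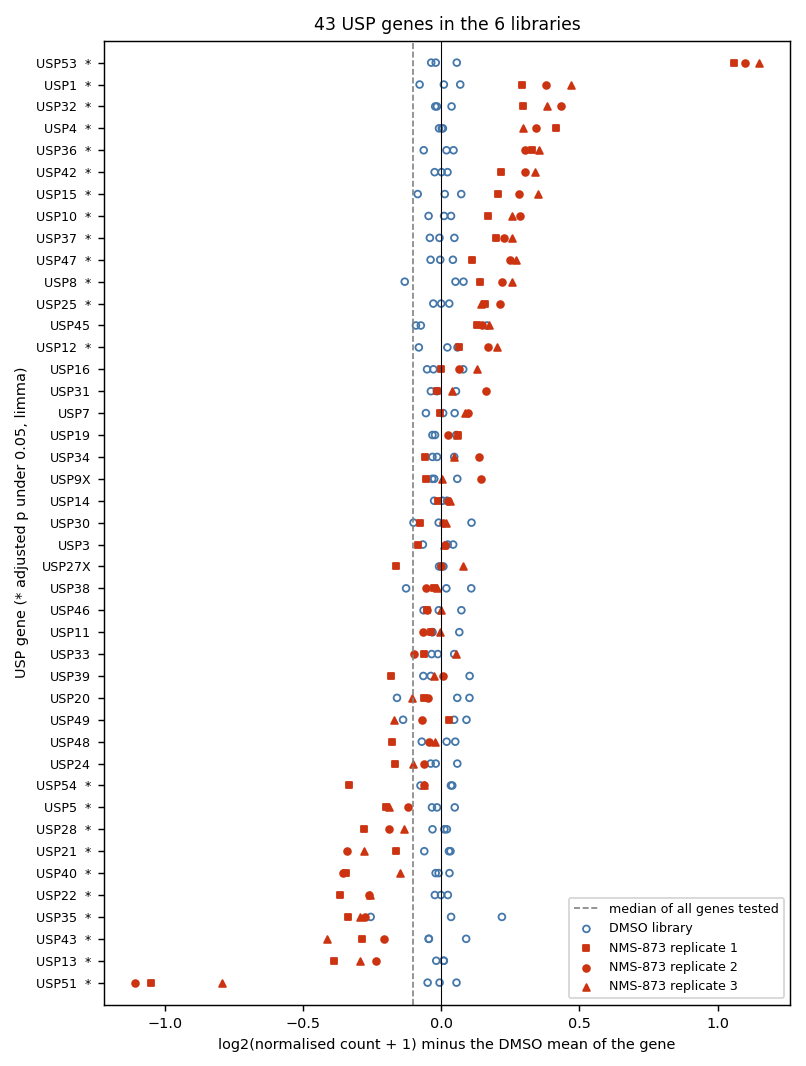
Each row is a USP gene, ordered by its change, and each point a library: its log2(normalised count + 1) minus the gene's mean over the 3 DMSO libraries (open circles, DMSO; filled symbols, NMS-873 replicates 1 to 3). The dashed line is the median log2 fold change of all genes tested, -0.10, and stars mark the 23 genes with an adjusted p under 0.05; USP53 and USP51 lie far outside the other 41.

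By level, a few members made up most of the family's RNA. Per length, USP5 (65.6 ± 1.98 FPKM with DMSO), which disassembles free ubiquitin chains, and USP22 (62.7 ± 1.02 FPKM), the deubiquitylase of the SAGA coactivator, were the most abundant, and their DMSO levels differed by little more than their spread. USP1 (40.3 ± 2.06 FPKM) and USP7 (35.6 ± 1.29 FPKM), which acts on MDM2 and p53, followed. USP39 (29.8 ± 1.89 FPKM), a splicing factor without catalytic activity, and USP10 (29.7 ± 0.852 FPKM) could not be ordered within their spread. The first 7 of the 43, with USP14 as the seventh (27.7 ± 0.455 FPKM), held 50.7% of the summed FPKM of the family. The lowest were USP49, USP30 and USP43, at 1.21 ± 0.101, 1.13 ± 0.0835 and 1.07 ± 0.0595 FPKM.

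The summed level of the family was 577, 558 and 589 FPKM in the DMSO libraries and 567, 601 and 603 FPKM in the NMS-873 libraries, so the groups overlapped. What moved was the order: with NMS-873 USP1, at 52.5 ± 3.21 FPKM, stood above USP22, at 51.1 ± 2.13 FPKM, though by less than the spread, while USP5 stayed first at 58.3 ± 1.79 FPKM. USP53 went from rank 35 with DMSO to rank 26, and USP51 from rank 40 to rank 43, the last.

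**Figure D2:**
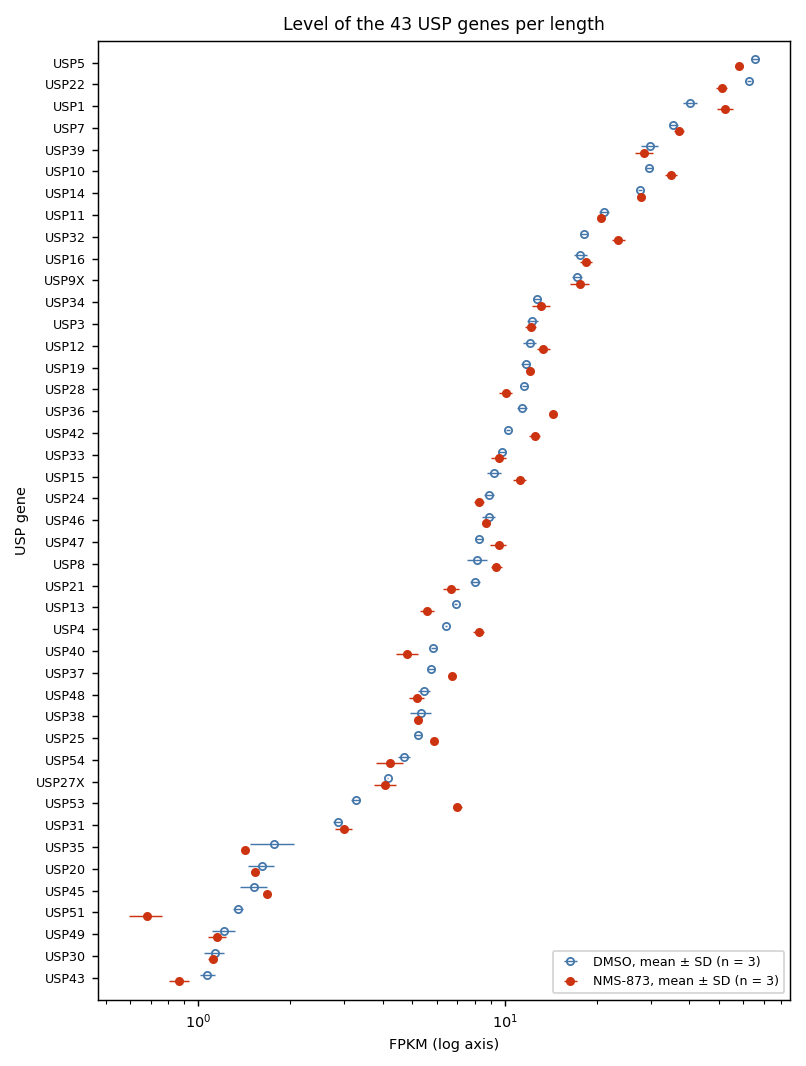
FPKM of each USP gene on a log axis, mean ± SD of 3 DMSO libraries (open circles) and 3 NMS-873 libraries (filled circles), ordered by the DMSO mean. Levels run from 65.6 FPKM for USP5 to 1.07 FPKM for USP43 with DMSO, and the wide gaps between the treatments are those of USP53 and USP51.

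USP53 (ENSG00000145390.7, chromosome 4, 120133742 to 120216672), a protein of cell junctions long classed as inactive, showed the largest change of the family. Its normalised counts were 832, 841 and 887 in the DMSO libraries and 1777, 1829 and 1895 in the NMS-873 libraries. The 2 sets lie far apart, and no library is out of line with its group. The rise was 2.15-fold (log2 fold change 1.10, SE 0.058, limma adjusted p = 1.02e-48), a size of at least 1.5-fold that 3.92% of all genes tested reached as calls upward. That p-value rests mostly on the variance of genes of similar level, and without the variance trend the limma adjusted p was 7.8e-05. USP54, the member most like it in sequence, was at 1035, 958 and 1038 normalised counts with DMSO and 802, 966 and 966 with NMS-873. Its groups overlapped, its call downward (log2 fold change -0.15, limma adjusted p = 0.0312) rests on NMS-873 replicate 1, and without that library it gave adjusted p = 0.423. The call was also lost without DMSO replicate 1 (adjusted p = 0.129) or DMSO replicate 3 (adjusted p = 0.0976).

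The role groups below hold 2 to 8 genes each, and their counts stand beside 14.9% of all genes higher and 33.0% lower, with no test of a group. Of the 7 genes for deubiquitylases of histones and chromatin, 3 fell (42.9%, near the share of all genes) and 4 did not pass. Those 4 had log2 fold changes from -0.07 to 0.06. USP51 (ENSG00000247746.4, chromosome X, 55511049 to 55515635), which acts on ubiquitylated histone H2A at sites of DNA damage, was at 125, 129 and 135 normalised counts with DMSO and at 62.2, 59.7 and 74.5 with NMS-873. The highest treated library thus lay well under the lowest control. It fell 1.98-fold (log2 fold change -0.98, SE 0.132, limma adjusted p = 1.85e-11), and 8.19% of all genes were called lower by at least 1.5-fold.

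USP22 (ENSG00000124422.7, chromosome 17, 20902910 to 20947073), which removes ubiquitin from histone H2B within SAGA, was at 9319, 9176 and 9481 normalised counts with DMSO. With NMS-873 it was at 7238, 7779.8 and 7793, all under the DMSO libraries, a fall of 1.23-fold (log2 fold change -0.30, SE 0.0557, limma adjusted p = 1.66e-06). A gene on the opposite strand overlaps it by 2680 bases and had a log2 fold change of -0.52. The use of strand in counting is not stated, so reads of the pair may not be told apart. USP21, which acts on histone H2A, fell 1.2-fold, from 659.9 ± 24.1 to 551 ± 34.4 normalised counts (adjusted p = 5.56e-04). USP27X, a relative of USP22 that shares some of its partners, did not pass, at 245 ± 1.34 and 241 ± 20.3 normalised counts (named after its values were seen).

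Among members that act in DNA repair, replication and the cell cycle, 3 of 8 rose and 1 fell. USP1 (ENSG00000162607.8, chromosome 1, 62901968 to 62917475) removes ubiquitin from FANCD2 and PCNA. It was at 3779, 3556 and 3938 normalised counts with DMSO and at 4598, 4881 and 5196 with NMS-873, so each treated library exceeded each control. The rise was 1.3-fold (log2 fold change 0.38, SE 0.0542, limma adjusted p = 2.44e-10). Both USP37, which acts on cyclin A, and USP47, which acts on DNA polymerase beta, rose by less than 1.2-fold. USP37 went from 1167 ± 36.2 to 1365 ± 28.4 normalised counts and USP47 from 2014 ± 56.7 to 2330.3 ± 138. USP28, which protects MYC from the ligase FBW7, fell 1.15-fold, from 1451 ± 27.8 to 1263 ± 62.8 normalised counts (log2 fold change -0.20, limma adjusted p = 0.00186). With gene-based factors the log2 fold change of USP28 was -0.10, and it passed only narrowly (adjusted p = 0.0466).

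USP7 did not pass on the spike-in scale (6195 ± 224 and 6451 ± 247 normalised counts, log2 fold change 0.06, limma adjusted p = 0.390) and did with gene-based factors (0.16, limma adjusted p = 1.72e-04). USP24 was lower in each treated library than in any control, at 2369, 2216 and 2245 against 2026, 2179.9 and 2120.1 normalised counts, but did not pass (log2 fold change -0.11, limma adjusted p = 0.0832); it passed with the replicate block (adjusted p = 0.0473), with equal totals (adjusted p = 0.0243) and after quantile normalisation (adjusted p = 0.0334). The change of USP24 is close to that of the typical gene on this scale. USP24 was named after its values were seen.

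Of the 4 members of the nucleolus and of RNA metabolism, 3 rose and 1, USP39, did not pass. USP36 (ENSG00000055483.15, chromosome 17, 76783463 to 76837523), the nucleolar deubiquitylase of MYC, was at 2632, 2485 and 2678 normalised counts with DMSO and at 3263, 3202 and 3319.8 with NMS-873. The lowest treated library lay well above the highest control. It rose 1.26-fold (log2 fold change 0.33, SE 0.0538, limma adjusted p = 3.49e-08). USP42, its nearest relative and an enzyme of p53, rose 1.22-fold, from 1588 ± 25.7 to 1938 ± 85.1 normalised counts. USP10, which acts on p53 and on ribosomal proteins, rose 1.18-fold, from 3298 ± 94.6 to 3883 ± 161. USP39 was at 2576 ± 163 and 2459 ± 167 normalised counts, with a log2 fold change of -0.07 that was 0.037 with gene-based factors.

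Of the 6 members tied to the ER and to mitochondria, 1 rose, 1 fell and 4 did not pass, and the 16.7% that rose is near the 14.9% of all genes. USP13 (ENSG00000058056.4, chromosome 3, 179370543 to 179507189), which works with VCP cofactors and the ligase gp78 in ER-associated degradation, was at 1284, 1261 and 1285 normalised counts with DMSO and at 976, 1083 and 1040.4 with NMS-873. The controls were nearly equal and all lay above the treated libraries. It fell 1.24-fold (log2 fold change -0.31, SE 0.0588, limma adjusted p = 2.52e-06). USP25, which opposes the ER ligase HRD1, rose 1.13-fold, from 892 ± 17.9 to 1005 ± 24.4 normalised counts (limma adjusted p = 0.0131), and without NMS-873 replicate 2 it no longer passed (adjusted p = 0.0805). USP19, an enzyme anchored in the ER membrane, did not pass, at 1470.3 ± 48.7 and 1518 ± 19.7 normalised counts (named after its values were seen). USP30, which removes K6-linked chains at the outer mitochondrial membrane and was named after its values were seen, did not pass either. It was at 118, 137 and 126 normalised counts with DMSO and at 120.3, 127 and 128 with NMS-873. Its groups overlapped, and its log2 fold change of -0.02 had an SE of 0.116.

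Of the 4 members of endosomes and receptors, 3 rose and 1, USP46, did not pass. USP32 (ENSG00000170832.8, chromosome 17, 58256455 to 58499831), a membrane-bound enzyme that acts on RAB7, was at 3033, 3046 and 3159.6 normalised counts with DMSO and at 3776, 4160.1 and 4018 with NMS-873. All treated libraries lay above all controls, replicate 1 the least so. It rose 1.29-fold (log2 fold change 0.37, SE 0.0538, limma adjusted p = 4.71e-10). USP6, a gene derived in part from USP32, had 4 reads in all libraries together. USP8, which acts with the ESCRT machinery on endosomes and on K6-linked chains of Parkin, was at 1373, 1185 and 1346 normalised counts with DMSO and at 1433, 1513 and 1552 with NMS-873. The groups did not overlap, and DMSO replicate 2 was the lowest. The log2 fold change was 0.21 (SE 0.0577, limma adjusted p = 0.00141). It was 0.14 without DMSO replicate 2 (adjusted p = 0.0644), and the call was also lost without the variance trend (adjusted p = 0.0716). USP12 rose 1.11-fold (limma adjusted p = 0.0302). That call was lost without DMSO replicate 1 or 2 or NMS-873 replicate 2 or 3, with adjusted p between 0.0624 and 0.188. So it was with log2(FPKM + 0.1) (adjusted p = 0.0588) and with no count minimum (adjusted p = 0.055). Without the variance trend USP12 gave adjusted p = 0.125.

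The 2 members tied to the proteasome and to free chains were abundant. USP5 (ENSG00000111667.9, chromosome 12, 6961292 to 6975796) was at 5303, 5236 and 5544 normalised counts with DMSO and at 4662, 4931 and 4697 with NMS-873, with no overlap. It fell 1.13-fold (log2 fold change -0.17, SE 0.0539, limma adjusted p = 0.00524), and with gene-based factors it did not pass (-0.07, adjusted p = 0.118). USP14, which trims chains at the proteasome, did not pass, at 3618 ± 59.5 and 3657 ± 57.6 normalised counts.

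Of 4 signalling members 2 rose, and they are close relatives. USP4 (ENSG00000114316.8, chromosome 3, 49315264 to 49378145), which acts on receptors and kinases of TGF-beta and other pathways, was at 942, 939 and 933 normalised counts with DMSO and at 1252, 1191 and 1153 with NMS-873. The controls hardly varied, and replicate 1 was the highest treated library. It rose 1.28-fold (log2 fold change 0.35, SE 0.0595, limma adjusted p = 8.26e-08). USP15, which stabilises TGF-beta receptors and SMADs, rose 1.21-fold, from 1849.8 ± 101 to 2245 ± 112 normalised counts. USP9X, an enzyme of many substrates, did not pass, at 5259 ± 185 and 5377 ± 388 normalised counts (named after its values were seen). The third relative, USP11, was listed with the repair members and did not pass, at 2432 ± 96.5 and 2372 ± 50.4 normalised counts (named after its values were seen).

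Of the 8 members outside these groups 1 rose, USP53, and 4 fell. USP40 fell 1.22-fold, from 1195 ± 21.9 to 984 ± 80.1 normalised counts (limma adjusted p = 2.03e-05). USP35 was at 233, 205 and 168 normalised counts with DMSO and at 158, 165 and 163 with NMS-873, so that the controls spread widely and the lowest came close to the treated libraries. Its call (log2 fold change -0.30, limma adjusted p = 0.00899) was lost without DMSO replicate 1 (adjusted p = 0.185) and without the variance trend (adjusted p = 0.0944). USP43, at 119 ± 6.59 and 96.3 ± 6.96 normalised counts, passed narrowly (limma adjusted p = 0.0344). It no longer passed without DMSO replicate 1 or 2 or NMS-873 replicate 1 or 3, with adjusted p between 0.0517 and 0.14. With gene-based factors, after quantile normalisation and with log2(FPKM + 0.1), USP35, USP43 and USP54 did not pass. With no count minimum USP43 and USP54 did not pass, and nor did USP54 without the variance trend. Over the family the 20 members that did not pass had log2 fold changes from -0.11 to 0.15 and SEs from 0.0535 to 0.116.

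Ratios between related genes within a library depend little on how libraries are scaled, and only through the 0.1 FPKM added to each value, which matters most for low genes such as USP43. Of the 15 pairs listed 14 had both genes among the members, and in 9 of them the log2 ratio of FPKM + 0.1 did not overlap between treatments. The same held for 67.4% of all 903 pairs of the 43 members, so related genes separated about as often as any 2 members. With 3 libraries against 3 the two-sided exact permutation test cannot go below p = 0.1, which these 9 pairs reached, and after adjustment over the 14 pairs their p was 0.156.

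The ratio of USP53 to USP54 was -0.51 ± 0.0634 (log2) with DMSO and 0.72 ± 0.116 with NMS-873, so USP54 was the higher of the pair in each control and USP53 in each treated library. USP25 to USP28, 2 relatives of which one rose and the other fell, went from -1.14 ± 0.0528 to -0.77 ± 0.081. USP4 to USP11 went from -1.70 ± 0.0633 to -1.31 ± 0.078, and USP11 to USP15 from 1.18 ± 0.0499 to 0.87 ± 0.0612. USP4 to USP15 overlapped, at -0.51 ± 0.0832 and -0.44 ± 0.131. USP36 to USP42, both higher with NMS-873, also overlapped, at 0.15 ± 0.0411 and 0.19 ± 0.0621. USP22 to USP27X fell from 3.88 ± 0.0158 to 3.62 ± 0.0654 without overlap.

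**Figure D3:**
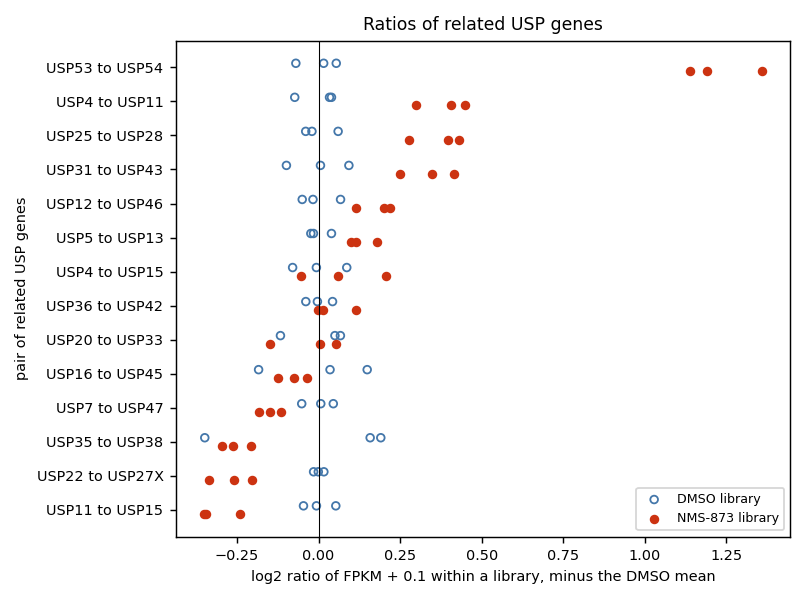
Each row is a pair of related USP genes and each point a library: the log2 ratio of FPKM + 0.1 of the first gene to the second, minus the DMSO mean of the pair (open circles, 3 DMSO libraries; filled circles, 3 NMS-873 libraries). In 9 of 14 pairs the treatments do not overlap, and USP53 to USP54 moved by 1.23, the most of these pairs.

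Other deubiquitylases were taken from a list of 37 genes of the UCH, OTU, MJD, JAMM, MINDY and related families, 33 of them tested. Of these 9 rose and 6 fell, against 14.9% and 33.0% of all genes, with a median log2 fold change of 0.03. Scaled to the genes, the counts were 17 higher and 5 lower, against 25.3% and 20.9% of all genes. Without DMSO replicate 2 or without the variance trend 5 were higher, and 1870 and 1801 of the 14889 genes tested. Both ZRANB1 (Trabid), an OTU enzyme, and CYLD, which has a USP domain without the name and limits NF-kB signalling, rose, by 1.51-fold and 1.45-fold. STAMBPL1, a JAMM enzyme of endosomes, fell 1.5-fold, and TNFAIP3 (A20), another brake on NF-kB, rose 1.42-fold. Of the deubiquitylases that bind VCP, VCPIP1 rose 1.2-fold, from 533 ± 27.2 to 639 ± 29.3 normalised counts (limma adjusted p = 6.41e-04). YOD1 fell 1.14-fold, from 696 ± 49.7 to 611 ± 20.7 (limma adjusted p = 0.0133), and did not pass with gene-based factors (adjusted p = 0.256). ATXN3 did not pass, at 342 ± 29.9 and 378 ± 13.3 normalised counts.

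Partner proteins of USP enzymes gave 4 higher and 4 lower of 14. This is 28.6% each, against 14.9% and 33.0% of all genes, so the share that fell is near that of all genes. With gene-based factors 6 were higher and 2 lower, against 25.3% and 20.9%, and on the spike-in scale 2 were lower without DMSO replicate 1 or NMS-873 replicate 1. WDR48 (UAF1), the activator that USP1, USP12 and USP46 share, rose 1.23-fold, from 824 ± 44.5 to 1015 ± 80.1 normalised counts (limma adjusted p = 1.29e-05). WDR20, a further subunit of the USP12 and USP46 complexes, fell 1.17-fold (limma adjusted p = 0.0148), and with gene-based factors it did not pass (adjusted p = 0.179). Among the SAGA partners of USP22, ATXN7L3 and ENY2 each fell 1.2-fold, while ATXN7 rose 1.24-fold. STAM, the endosomal adaptor that binds USP8, rose 1.27-fold, from 1024 ± 39.7 to 1302 ± 80.4 normalised counts. SART3, listed with USP4 and USP15, fell 1.09-fold (limma adjusted p = 0.0467) and did not pass with gene-based factors (adjusted p = 0.601). GMPS of USP7, PSMD2 and PSMC1 of USP14, G3BP1 and G3BP2 of USP10 and HGS of USP8 did not pass on the spike-in scale. Their log2 fold changes ran from -0.07 to 0.12. WDR20, ENY2, SART3 and the partners that did not pass were named after their values were seen.

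**Figure D4:**
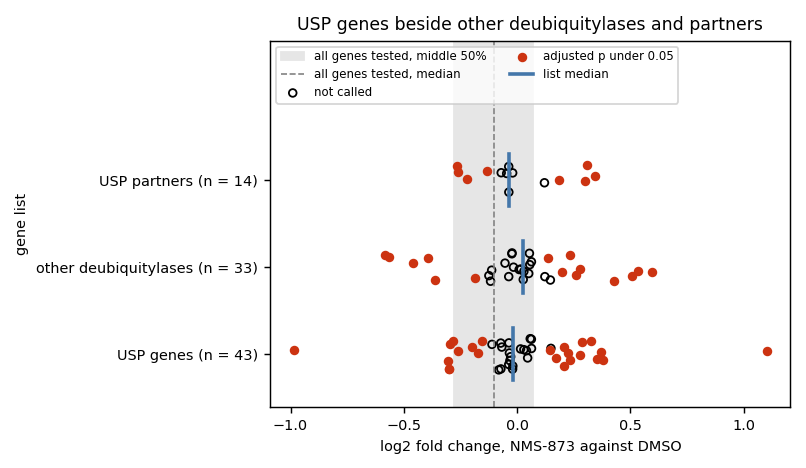
Log2 fold change of each tested gene in 3 lists, with genes past an adjusted p of 0.05 filled, the list median as a bar, and the median and middle 50% of all genes tested as a dashed line and a grey band. The medians are -0.02 for the 43 USP genes, 0.03 for 33 other deubiquitylases and -0.04 for 14 partner proteins, against -0.10 for all genes tested.

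Gene size and level went only weakly with the change. Across the 43 members, Spearman's rho with the log2 fold change was 0.20 for the span of the gene, 0.22 for its counted exon length and 0.22 for its FPKM with DMSO. Across genes with a mean of at least 50 these were 0.14, 0.09 and 0.07 (12079 genes, which share the libraries and are not independent). USP genes were long: their median span was 76.7 kb against 33.4 kb for those genes, and their median counted exon length 7303 bases against 4943. Of the 43 members, 12 overlap another tested gene, 11 of them on the opposite strand.

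Just inside the minimum of 50 were USP51 and USP43, with means of 97.7 and 108 normalised counts, and just outside were USP18, the protease of the ubiquitin-like protein ISG15, with 20.4, and USP2 with 1.86. Besides these, USP50, USP41, USP6, USP44, USP26 and USP29 were under the minimum, with between 0 and 11 reads over all libraries. USP41 is a near copy of part of USP18, so how reads were shared between them is uncertain.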

How the data were processed

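RNA-seq of 6 U2OS libraries, 3 per treatment by their titles, was deposited as 1 table. Reads were placed on hg19, and featureCounts 1.5.1 and DESeq2 1.16.1 are named, per the submitters' processing notes; the aligner and the use of strand are not given in the sources used here. The deposited sample columns hold FPKM, a unit worked out from the values. The authors also deposited, per the file headers, the mean normalised count per gene (a signal, in scaled reads) together with a log2 fold change and an adjusted p-value from their own comparison.

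Normalised counts were rebuilt as FPKM times the mean normalised count over the mean FPKM. Multiplied by the implied size factors, 100% of values lay within 0.001 of a whole read, and these factors are proportional to the median of ratios over spike-in rows (92 in the table, 80 with a read; a row at 0 does not enter). Counted exon lengths follow from the same values. The design assumed normalised counts, deposited or rebuilt, so the test was kept: limma 3.58.1 (run in R 4.3.3) fitted treatment alone to log2(normalised count + 1) of genes with a mean of at least 10, with an intensity trend, two-sided, Benjamini-Hochberg over 14889 genes, with calls below 0.05. This scale, on which fold changes are given, understates low genes. The prior variance had 250.84 degrees of freedom, so the spread of a gene came mostly from genes of similar level. The code was tested on simulated data. Libraries held 21132311 to 22488952 reads, without molecular identifiers.

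The members and lists were chosen with earlier results of these data known. Every member past the threshold could be named, with values per library for changes of at least 1.3-fold and for the member of lowest adjusted p in each role group; also the members nearest the mean of 50, the 3 most abundant members that did not pass, up to 4 called genes of lowest adjusted p in each other list, and VCPIP1, YOD1 and ATXN3. Further members, and further values per library, were chosen after values were seen. Of the marker list 17 of 18 genes were matched. Alternatives covered scaling, pseudocount, count minimum, unit, variance trend, voom, a replicate block and each library left out.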

Additional observations from a re-analysis of the deposited data

How the results depend on the processing

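With gene-based factors all genes gave 3760 higher and 3108 lower calls, the USP genes 21 and 6, the other deubiquitylases 17 higher and the partners 2 lower. The cause was not tested, beyond the shift of the median gene from -0.10 to 0.00. The other deubiquitylases gave 5 higher without the variance trend, and the partners gave 2 lower without it and with log2(FPKM + 0.1). All genes gave 1801 higher and 3706 lower without the trend, and 1995 and 4340 with log2(FPKM + 0.1). The other planned settings that kept all 6 libraries left these counts within 1.5 times.

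Leaving out 1 library at a time gave 11 to 13 higher and 7 to 10 lower USP genes, 5 to 9 higher (5 without DMSO replicate 2) and 5 to 7 lower other deubiquitylases, 3 to 5 higher and 2 to 4 lower partners (2 without replicate 1 of either treatment), and 1870 to 2406 higher and 4005 to 4957 lower genes in all. The log2 fold change of USP39 turned to 0.037 with gene-based factors. That of USP30 turned to 0.085 with gene-based factors and 0.14 after quantile normalisation, and ran from -0.069 to 0.036 when 1 library was left out. That of USP9X ran from -0.027 (without NMS-873 replicate 2) to 0.074 (without NMS-873 replicate 1). None of these values passed the test. At a pseudocount of 1 FPKM the change in log2 ratio was 0.20 for USP31 to USP43 and 1.03 for USP53 to USP54, which that pseudocount shrinks by construction.

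Deviations of same-numbered libraries correlated at 0.04, -0.03 and 0.04, and those of differently numbered ones at -0.072 to 0.035. These values take in the count noise of every gene tested, so they cannot decide whether replicate numbers pair the samples. With the replicate block 13 USP genes were higher and 11 lower, against 13 and 10 without it. Of all genes 2352 and 5255 then passed, against 2217 and 4910. With 3 libraries per treatment the SE of the log2 fold change of a member ran from 0.0535 to 0.132, the largest being that of USP51, a gene of few reads.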
